A study of Caenorhabditis elegans with 8 samples.

Results

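Ionotropic glutamate receptors are ligand-gated cation channels that open when glutamate is released from a presynaptic neuron. Caenorhabditis elegans has both of the classes known from vertebrates, the non-NMDA subunits encoded by the glr genes, which are related to the AMPA and kainate receptors of vertebrates, and the NMDA subunits encoded by the nmr genes. They are best known from the command interneurons, the cells that decide between forward and backward movement, where GLR-1 and GLR-2 form receptors together and NMR-1 and NMR-2 form a separate, slower channel. The receptor genes described here are the 10 rows of the count table named glr-1 to glr-8, nmr-1 and nmr-2, out of 46748 rows. All 10 were found, and all 10 passed the filter on low counts that left 11378 genes for testing.

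The libraries came from neurons isolated by fluorescence-activated cell sorting from untreated worms of strain OH10689. These carry the transgene otIs355 on chromosome IV, written [rab-3(prom1)::2xNLS-TagRFP], so that rab-3 promoter activity, which is found throughout the nervous system, puts the red protein TagRFP into nuclei. Sorted cells went directly into Trizol LS. Each of 4 RNA samples was divided between the SoLo Ovation kit, whose libraries are freed of ribosomal RNA fragments by depletion, and SMARTseq V4 followed by Nextera XT, which starts cDNA synthesis at poly(A) tails. This gave 4 SoLo and 4 SMARTseq libraries, all from the same strain, and the question of the design is how the same RNA is represented by the SoLo kit and by the SMARTseq kit. The labels give no worm age and leave unstated if separate cultures gave the 4 RNA samples. The p-values therefore measure only how much these samples spread, which may be technical.

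SoLo libraries held 2354681 to 3454199 gene counts and SMARTseq libraries 4510927 to 7099497. All 12 neuronal marker genes were tested. Of these, 9 were higher and 2 lower in SoLo, where 20% of all tested genes were higher and 27.6% lower. Their median log2(SoLo/SMARTseq) was 0.86. Their sum, most of it from egl-3 and sbt-1, was 12399 to 16390.2 CPM (read counts scaled to library size with TMM) in SoLo and 13566 to 17442 CPM in SMARTseq. The sum thus does not follow the median. Transcripts of other tissues were present as well. The 6 muscle markers summed to 5841 to 7282 CPM in SoLo and 3524 to 4999 CPM in SMARTseq. Most of this sum came from 1 gene, unc-54 (6255 ± 769 CPM in SoLo and 3891 ± 778 CPM in SMARTseq). Of the muscle markers, 5 were higher in SoLo and 1 was not called. The 6 hypodermal markers summed to 86.5 to 219 CPM in SoLo and 297 to 2539 CPM in SMARTseq. Of these, 5 were tested, and col-19, dpy-13 and sqt-3 were lower in SoLo, bli-1 was higher and rol-6 was not called. The sum of the 6 intestinal markers was 256 to 425 CPM in SoLo and 99.1 to 153 CPM in SMARTseq, and that of the 6 glial markers was 12.1 to 17.2 CPM in SoLo and 83.3 to 147 CPM in SMARTseq. Most of the glial sum in SMARTseq came from hlh-17 (109 ± 24.9 CPM), which was lower in SoLo. The glial marker kcc-3 was not called, and the other glial markers had too few counts to be tested. The 6 germline markers reached at most 211 CPM in SoLo and 456 CPM in SMARTseq. Within these lists elt-2, ges-1, delm-1, mir-228 and dpy-7 had low counts in both kits, whereas others were abundant, such as dpy-13 with 52.5 ± 34.1 CPM in SoLo, against 918 ± 639.8 CPM in SMARTseq, or asp-1 with 132 ± 34.9 CPM in SoLo and 88.9 ± 16.2 CPM in SMARTseq. No listed gene was at 0 in all libraries. The part of these cells in the receptor values was not tested.

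Reads of the 10 receptor genes made up 0.0623% ± 0.00484 of all gene counts in SoLo and 0.0991% ± 0.0149 in SMARTseq (SD, n = 4 libraries per kit). Their summed level was 469, 575, 519.9 and 521 CPM in SoLo libraries 1 to 4 and 1052, 1426, 1318 and 1043 CPM in SMARTseq libraries 1 to 4, so that every SMARTseq library lay above every SoLo library. Of the receptor reads, glr-5 held the largest mean share in both kits, 30.2% ± 3.57 in SoLo and 26.2% ± 4.44 in SMARTseq. The make-up differed in the rest. In SoLo glr-4 was the next with 20.1% ± 5.9, against 4.78% ± 2.03 in SMARTseq, while nmr-2 held 9.91% ± 1.05 in SoLo and 21.3% ± 2.07 in SMARTseq, and glr-1 10.1% ± 1.96 in SoLo and 20.3% ± 4.8 in SMARTseq. The NMDA class as a whole held 17.4% ± 1.43 of receptor reads in SoLo and 28.3% ± 2.32 in SMARTseq.

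**Figure D1:**
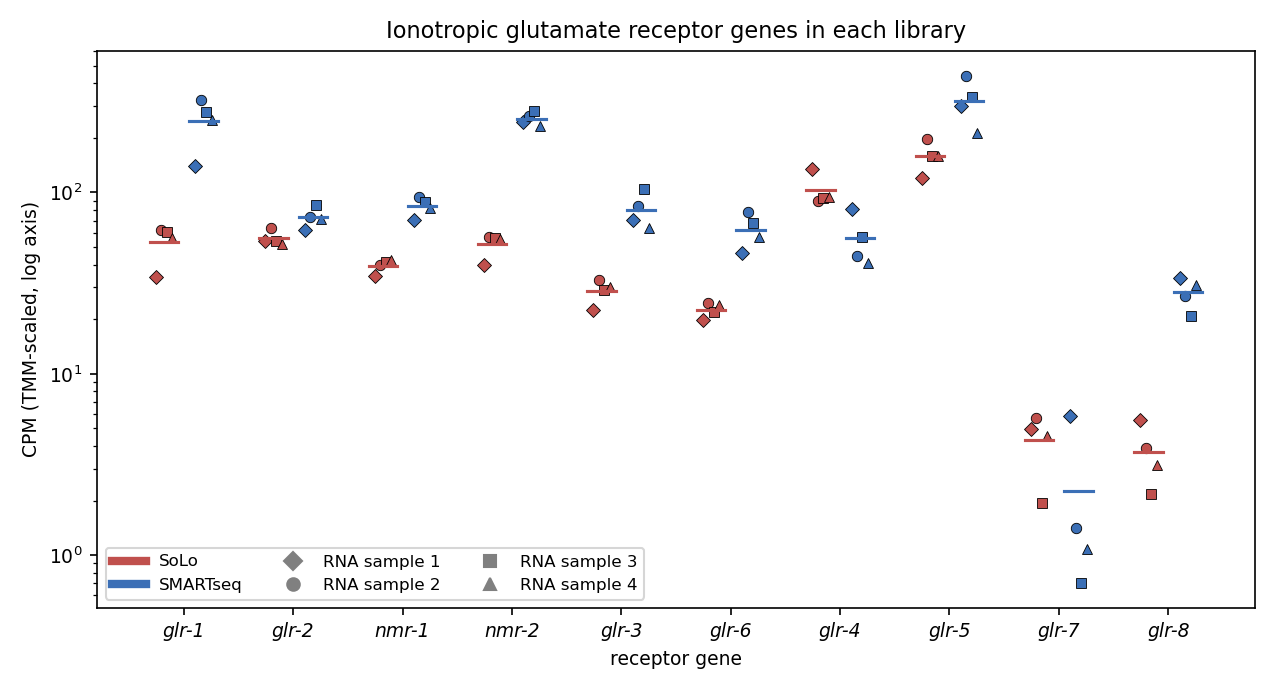
Level of each receptor gene in CPM (log axis) in every library, SoLo in red at the left and SMARTseq in blue at the right of each gene, with the marker giving the RNA sample and the bar the mean of 4 libraries. SoLo and SMARTseq do not overlap for 8 genes, of which glr-4 is the one higher in SoLo, and overlap for glr-2 and glr-7.

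Of the 10 receptor genes, 7 were lower in SoLo than in SMARTseq, 1 was higher in SoLo, and 2 passed the test in neither direction. The lower ones were glr-1, glr-3, glr-5, glr-6, glr-8, nmr-1 and nmr-2, the higher one was glr-4, and glr-2 and glr-7 were not called. Across all 11378 genes tested with edgeR's quasi-likelihood test and Benjamini-Hochberg adjustment, 47.6% were called at an adjusted p under 0.05, 20% being higher and 27.6% lower in SoLo. The libraries of the kits did not overlap in CPM for 8 of the 10 receptor genes, and for 46.2% of all tested genes. In log2(SoLo/SMARTseq), negative where SoLo is lower, the receptor genes had a median of -1.28, and all tested genes one of 0.01. With library totals as the only scaling, the median of all genes moved to 0.56, and 4318 genes were higher and 2388 lower in SoLo, against 2276 and 3139 with TMM, so each fold change given here is relative to the TMM baseline. With RNA samples 2 to 4 summed within each kit and no block for the RNA sample, nmr-2 and glr-8 were the 2 receptor genes called, where 9.28% of 14456 tested genes were. The fold changes of the other genes called above stayed of similar size there, with glr-1 at -2.05 and glr-3 at -1.44. Those of glr-2 and glr-7, not called in either fit, were smaller in size, at -0.22 and 0.51. With the replicate block (the RNA sample as a term) on the same sums, 1 receptor gene was higher and 7 were lower in SoLo, where 48.9% of all genes were called.

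**Figure D2:**
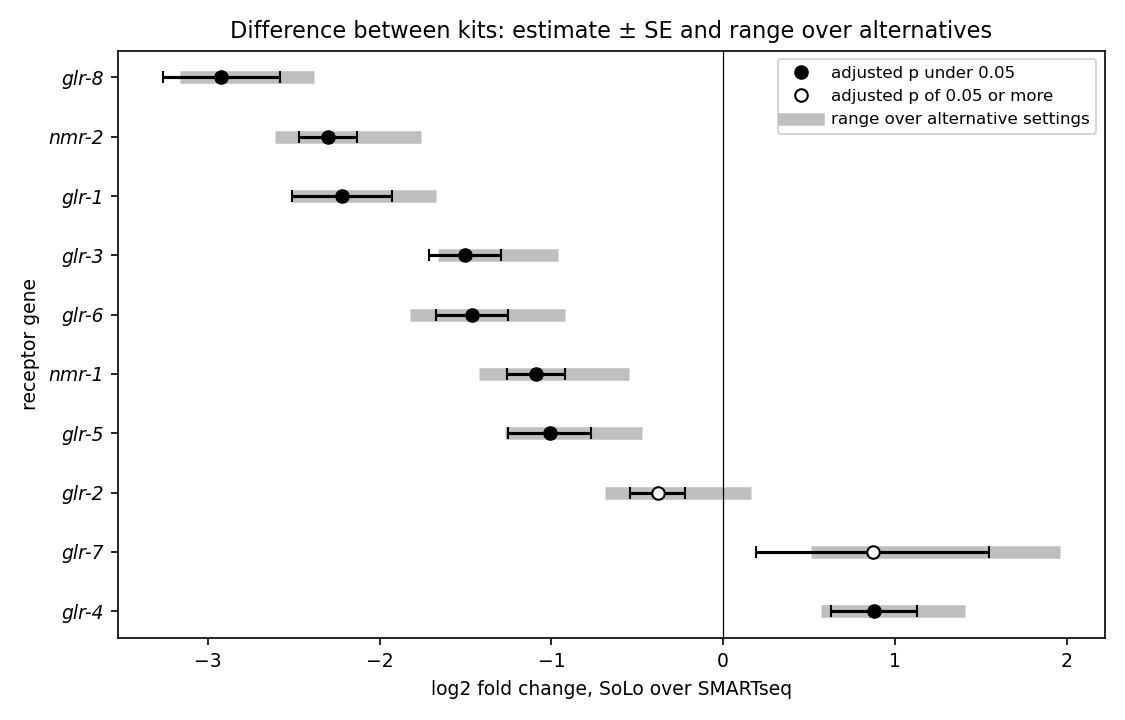
Log2 fold change of SoLo over SMARTseq for each receptor gene, as the edgeR estimate with its SE (black), filled where the adjusted p is under 0.05, over the range that the same value took in the alternative settings (grey). The estimates run from -2.92 for glr-8 to 0.88 for glr-4, and among these settings the grey range of glr-2 alone crosses 0.

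Of the genes grouped here under the command interneurons, glr-1, nmr-1 and nmr-2 were lower in SoLo and glr-2 was not called. glr-1 (WBGene00001612, chromosome III 8584163 to 8588642 on WBcel235, minus strand) encodes the AMPA-type subunit required for the response to nose touch. It had 34.1, 62.4, 60.6 and 56.3 CPM in SoLo libraries 1 to 4 and 140, 323, 279 and 251 CPM in SMARTseq libraries 1 to 4. Every SMARTseq value exceeded every SoLo value, and library 1 was the lowest of each kit. On the log2 scale SoLo differed from SMARTseq by -2.22 ± 0.29 (SE, n = 4 per kit, edgeR adjusted p = 0.000205).

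The partner subunit gene glr-2 (WBGene00001613, chromosome III 7138640 to 7144959, minus strand) had 54, 63.8, 54.1 and 52.1 CPM in SoLo and 62.1, 73.3, 85 and 71.1 CPM in SMARTseq. The kits overlapped, since SoLo library 2 lay above SMARTseq library 1, although the SoLo library was the lower of the pair in all 4 RNA samples. Its difference of -0.38 ± 0.16 missed the threshold (edgeR adjusted p = 0.084), with a 95% interval of -0.75 to -0.01. With the RNA sample as a replicate block the same difference passed (edgeR adjusted p = 0.0365), which made 9 of 10 receptor genes called, where 61.1% of all genes were. With RNA samples 2 to 4 summed it did not pass under the block (-0.22, edgeR adjusted p = 0.377). It also passed without SMARTseq library 1 (-0.48, edgeR adjusted p = 0.0328). Under library totals it turned to 0.16 and was not called. Exons of non-coding RNAs on the opposite strand cover 21% of the exonic bases of glr-2, and as the strand setting of the counting is not given, the origin of reads there is uncertain. Such overlap was at most 4.37% for the other 9 genes.

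Per kilobase of exon, glr-1 and glr-2 stood in different ratios in the kits. The level of glr-1 over that of glr-2 was 0.651, 1.01, 1.16 and 1.11 in SoLo libraries 1 to 4, and 2.33, 4.54, 3.39 and 3.64 in SMARTseq libraries 1 to 4. SoLo gave about equal length-scaled levels in RNA samples 2 to 4, and SMARTseq gave glr-1 the higher one in every library. No test was made of these ratios.

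nmr-1 (WBGene00003774, chromosome II 5440238 to 5446606, minus strand) encodes the obligate NR1-type subunit of the NMDA receptor. In SoLo libraries 1 to 4 it reached 34.4, 39.6, 41.1 and 42.3 CPM, and in SMARTseq libraries 1 to 4 70.2, 94.8, 88.1 and 82.1 CPM. The kits were fully separated, and the log2 fold change stood at -1.09 ± 0.17 (edgeR adjusted p = 0.000518). nmr-2 (WBGene00003775, chromosome V 15006341 to 15011660, minus strand) encodes the NR2-type subunit.

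The values of nmr-2 were 39.6, 56.7, 55.8 and 55.2 CPM in SoLo and 244, 263, 282 and 232 CPM in SMARTseq. Every SMARTseq value exceeded every SoLo value, SoLo libraries 2 to 4 lay close together, and SoLo library 1 was the lowest. Its log2 fold change of -2.30 ± 0.17 had the smallest adjusted p among the receptor genes (edgeR adjusted p = 4.75e-06), a level in SMARTseq 4.92-fold that in SoLo. Per kilobase of exon, nmr-2 stood 1.19 to 1.47 times as high as nmr-1 in SoLo libraries and 2.85 to 3.58 times as high in SMARTseq libraries.

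Both genes known from the interneuron RIA, which integrates sensory input into head bending, were lower in SoLo. glr-3 (WBGene00001614, chromosome I 7117808 to 7121545, plus strand) encodes a kainate-type subunit that also acts as a cold receptor. It had 22.4, 32.8, 28.8 and 30 CPM in SoLo and 70.2, 83.9, 104 and 63.8 CPM in SMARTseq, without overlap. The log2 fold change was -1.50 ± 0.21 (edgeR adjusted p = 0.000336).

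glr-6 (WBGene00001617, chromosome X 6836210 to 6840720, minus strand), a further non-NMDA subunit gene, had 19.7, 24.6, 22 and 24.1 CPM in SoLo and 46.6, 77.8, 67.5 and 57.1 CPM in SMARTseq. The kits were again separated, by -1.46 ± 0.21 (edgeR adjusted p = 0.000313). The level of glr-3 per kilobase was 1.51 to 1.76 times that of glr-6 in SoLo and 1.42 to 2.04 times in SMARTseq. This ratio overlapped between the kits, unlike those of glr-1 to glr-2 and of nmr-2 to nmr-1.

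glr-4 and glr-5, non-NMDA subunit genes that are active in several classes of neurons, went in opposite directions. glr-4 (WBGene00001615, chromosome II 7785100 to 7794322, minus strand) had 135, 89.2, 93.7 and 94 CPM in SoLo and 81.5, 44.9, 56.7 and 40.9 CPM in SMARTseq. Every SoLo value exceeded every SMARTseq value, and RNA sample 1 was the highest in both kits. The log2 fold change of 0.88 ± 0.25 was called (edgeR adjusted p = 0.017). It no longer passed without SMARTseq library 2 (0.75, edgeR adjusted p = 0.0544), without SMARTseq library 4 (0.72, edgeR adjusted p = 0.0523) or with the trend of fold change on exonic length taken out (0.57, edgeR adjusted p = 0.0872). With that trend taken out and the replicate block it passed (0.59, edgeR adjusted p = 0.00235).

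glr-5 (WBGene00001616, chromosome V 8716495 to 8720516, plus strand) was the receptor gene with most reads, 2099 in SoLo and 6273 in SMARTseq. Its levels were 120, 196, 160 and 159 CPM in SoLo and 298, 438, 334 and 213 CPM in SMARTseq. They did not overlap, although SMARTseq library 4 at 213 CPM came close to SoLo library 2 at 196 CPM. The log2 fold change was -1.01 ± 0.24 (edgeR adjusted p = 0.00611), and -0.47 with library totals as the scaling, where it was not called (edgeR adjusted p = 0.0995).

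The receptor genes of pharyngeal neurons, which control feeding, had the fewest reads. glr-8 (WBGene00001619, chromosome X 6505980 to 6509957, plus strand) had 20, 11, 9 and 9 reads in SoLo and 198, 113, 118 and 115 in SMARTseq. This is 5.54, 3.92, 2.17 and 3.14 CPM in SoLo and 33.9, 26.7, 20.8 and 31 CPM in SMARTseq. Even the upper end of the 95% Clopper-Pearson interval of the highest SoLo library, 8.56 CPM, lay below the lowest SMARTseq value. The interval covers counting error only, and whether PCR copies were merged before counting is not given in the sources used here. The log2 fold change of -2.92 ± 0.34 was the largest among the receptor genes (edgeR adjusted p = 8.56e-05), and 7.44% of all tested genes had a lower value.

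glr-7 (WBGene00001618, chromosome X 2413909 to 2419877, minus strand) had 18, 16, 8 and 13 reads in SoLo and 34, 6, 4 and 4 in SMARTseq. Its levels were 4.99, 5.71, 1.93 and 4.54 CPM in SoLo and 5.82, 1.42, 0.707 and 1.08 CPM in SMARTseq. SMARTseq library 1 was the highest of all 8 libraries, and the other SMARTseq libraries lay below every SoLo library. The log2 fold change of 0.87 ± 0.68 was not called (edgeR adjusted p = 0.321), with a 95% interval of -0.66 to 2.40. Without SMARTseq library 1 it was 1.96 and called (edgeR adjusted p = 0.0132). The gene passed the filter on low counts with 3 SoLo libraries and 1 SMARTseq library at or above the limit of 2.51 CPM of library total, whereas the other 9 genes were above it in all libraries. That SMARTseq library was library 1, the highest value. Without it the gene passed the filter through SoLo libraries alone, so the call at 1.96 is no support for a difference.

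For the order of levels below, genes are compared as CPM per kilobase of exonic length. The shares of receptor reads given above are not scaled by length. In SoLo, glr-5 stood first at 55.3 ± 10.9, followed by glr-4 at 33.4 ± 6.95, glr-2 at 18 ± 1.71, glr-1 at 17.7 ± 4.35, nmr-2 at 16.9 ± 2.66, nmr-1 at 12.5 ± 1.1, glr-3 at 11.4 ± 1.75, glr-6 at 6.82 ± 0.679, glr-8 at 1.82 ± 0.7 and glr-7 at 1.53 ± 0.585 (SD, n = 4). Neighbours in this order whose libraries did not overlap were glr-4 and glr-2, glr-3 and glr-6, and glr-6 and glr-8. The genes glr-2, glr-1 and nmr-2 overlapped from one to the next, as did nmr-2, nmr-1 and glr-3. By single library, glr-2 stood above glr-1 in 1 of 4 SoLo libraries, library 1, so their order by mean was reversed in the others.

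In SMARTseq the order was glr-5 at 112 ± 32.5, nmr-2 at 83.1 ± 7.09, glr-1 at 82.5 ± 25.9, glr-3 at 32.1 ± 7.09, nmr-1 at 26.5 ± 3.31, glr-2 at 23.5 ± 3.03, glr-6 at 18.8 ± 4.05, glr-4 at 18.1 ± 5.91, glr-8 at 13.8 ± 2.79 and glr-7 at 0.802 ± 0.851 CPM per kilobase (SD, n = 4). Steps without overlap lay between glr-1 and glr-3 and between glr-8 and glr-7. The 3 genes at the top were thus set apart from the 6 that followed, each of which overlapped with the next. At the top, nmr-2 stood above glr-1 in 1 of 4 SMARTseq libraries, library 1, so their order by mean was reversed in the others. Both kits had the highest mean for glr-5 and the lowest for glr-7, although glr-5 overlapped with its neighbour in each kit and glr-7 with glr-8 in SoLo, and glr-4 stood at rank 2 in SoLo and rank 8 in SMARTseq.

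**Figure D3:**
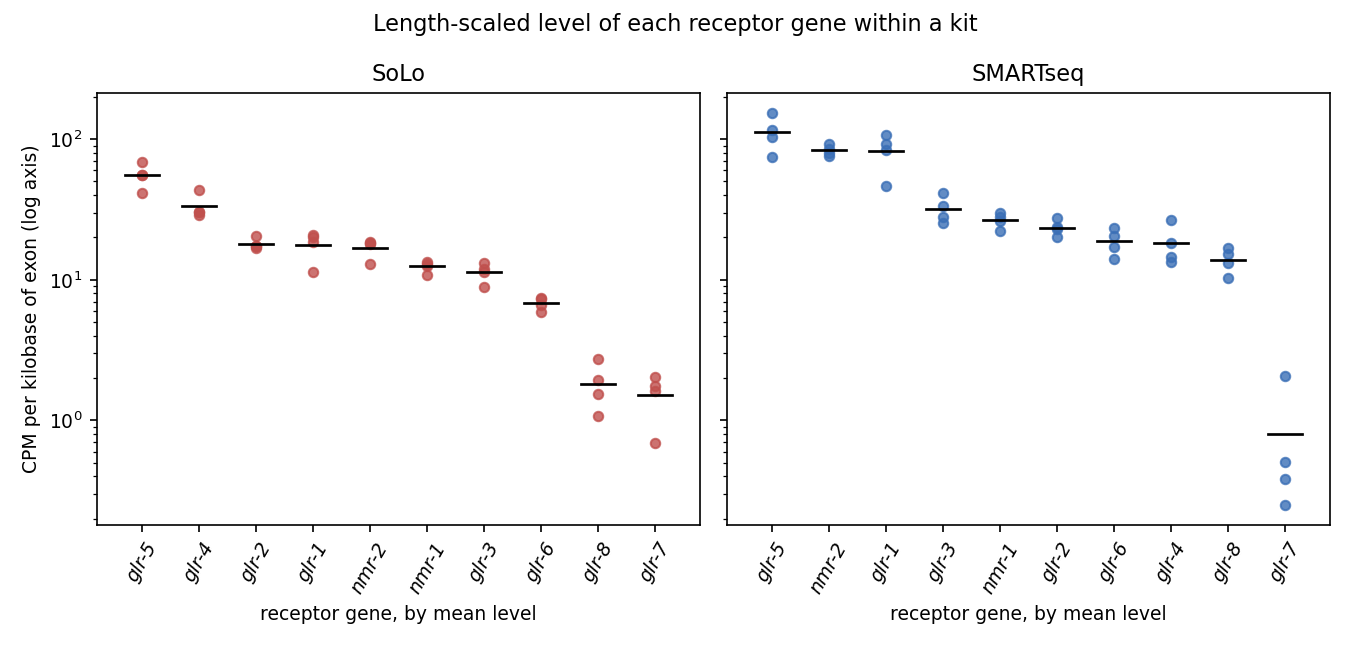
CPM per kilobase of exonic length (log axis) of each receptor gene, ordered by its mean within SoLo (left) and within SMARTseq (right), with 1 point per library and the mean of 4 libraries as a bar. glr-5 leads in both kits, glr-4 is at rank 2 in SoLo and at rank 8 in SMARTseq, and glr-7 is last in both.

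RNA sample 1 lay outside RNA samples 2 to 4 on the same side in both kits for 5 of the 10 receptor genes, and for 48.7% of all tested genes, so the receptor genes shared this at about the background rate. It lay below all 3 others in both kits for glr-1, glr-6 and nmr-1, and above them in both kits for glr-4 and glr-8. For glr-1, RNA sample 1 had 34.1 CPM against 56.3 to 62.4 CPM in SoLo, and 140 CPM against 251 to 323 CPM in SMARTseq, which is 0.57 and 0.493 of the mean of the others. For glr-4 it had 135 CPM against 89.2 to 94 CPM in SoLo and 81.5 CPM against 40.9 to 56.7 CPM in SMARTseq, or 1.46 and 1.71 times their mean. The other 5 genes did not stand outside on the same side in both kits.

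With 1 RNA sample on one side, these values have no replicate check, and the labels give no difference between the RNA samples. Of the 12 neuronal markers, RNA sample 1 was above the others in both kits for 2, egl-3 and maco-1, and below them in both kits for 3, unc-64, snb-1 and ric-4. For egl-3 it had 8982 CPM against 5498 to 5792 CPM in SoLo, and 6562 CPM against 3797 to 4262 CPM in SMARTseq. It was above in both kits for 4 of 6 intestinal and 3 of 6 muscle markers, and below in both kits for 5 of 6 hypodermal, 4 of 6 germline, 1 of 6 glial and 1 of 6 muscle markers. The muscle marker below was unc-54, which makes up most of the muscle sum, at 5182 CPM in SoLo and 3195 CPM in SMARTseq. Intestinal markers summed to 425 CPM against 256 to 316 CPM in SoLo, and to 153 CPM against 99.1 to 120.3 CPM in SMARTseq. Hypodermal markers summed to 86.5 CPM against 176 to 219 CPM in SoLo, and to 297 CPM against 1791 to 2539 CPM in SMARTseq. Whether these marker levels bear on the receptor values was not tested. In bulk RNA, fewer cells of a type and less RNA of a gene per cell cannot be told apart.

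**Figure D4:**
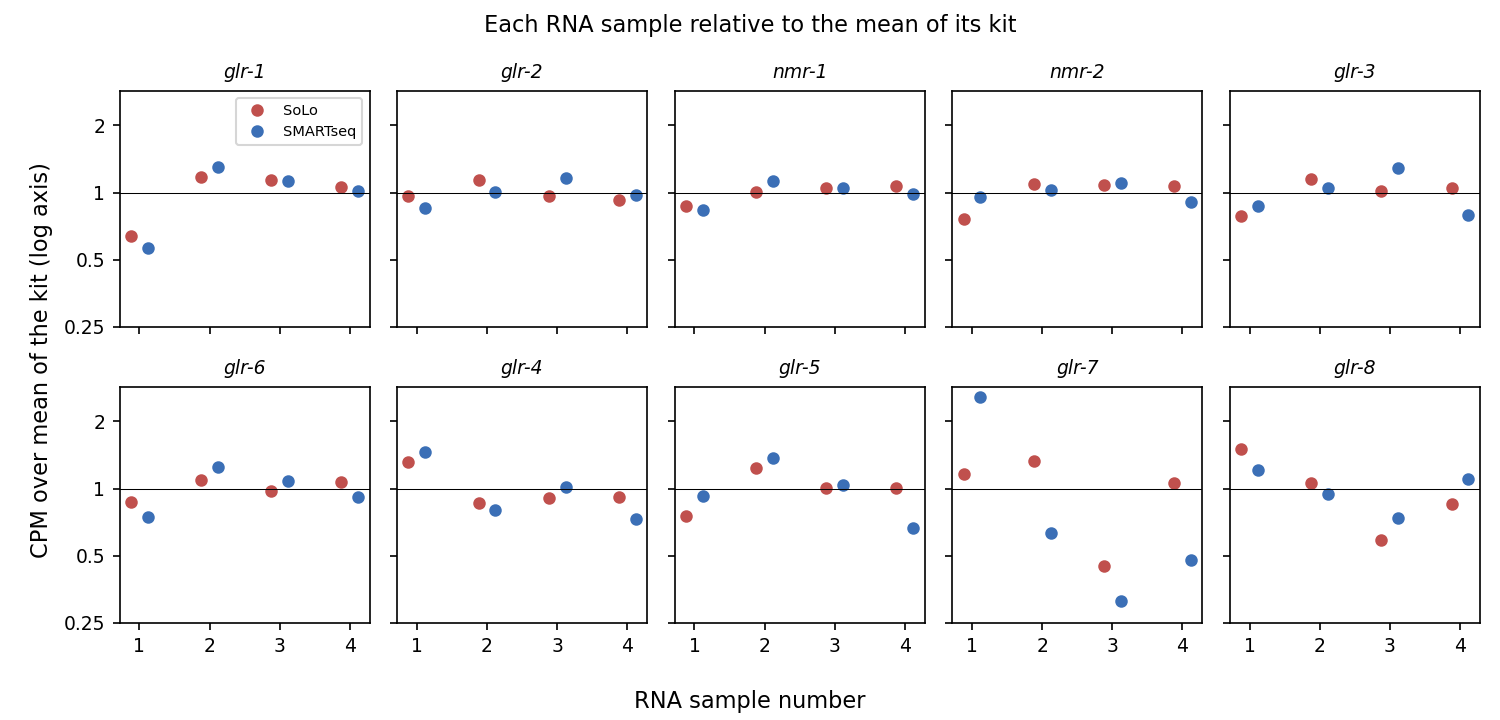
CPM of each receptor gene in each RNA sample divided by the mean of its kit (log axis), for SoLo (red, left) and SMARTseq (blue, right). RNA sample 1 is low in both kits for glr-1 and high in both kits for glr-4, at 0.57 and 0.493, and at 1.46 and 1.71 times the mean of RNA samples 2 to 4.

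Within an RNA sample the ratio of SoLo over SMARTseq varied less for some genes than for others. It lay between 0.193 and 0.243 for glr-1, between 0.162 and 0.238 for nmr-2, and between 0.418 and 0.515 for nmr-1. For glr-5 it spanned 0.402 to 0.747, and for glr-8 0.102 to 0.164. All 4 ratios were below 1 for 8 genes, glr-2 among them with 0.637 to 0.871, and all 4 were above 1 for glr-4 with 1.65 to 2.3. The ratios of glr-7 were 0.857 in RNA sample 1 and 2.74 to 4.22 in the others.

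The receptor genes are alike in size. Their exonic length ran from 2033 bases for glr-8 to 3315 bases for glr-6. The 3 genes glr-6, glr-7 and glr-8 lie on chromosome X, and the other 7 on 4 autosomes, with glr-3 on I, glr-1 and glr-2 both on III, glr-4 and nmr-1 on II and glr-5 and nmr-2 on V. glr-4 has the longest annotated 3′ untranslated region of the family, 427 bases, against 26 to 210 bases in the 8 other genes with one annotated. Along the trend of all tested genes, exonic lengths such as theirs went with log2 fold changes between 0 for glr-8 and 0.36 for glr-6. With the trend taken out, the same 7 genes were lower in SoLo, glr-2 joined them at -0.69 (edgeR adjusted p = 0.00686), and glr-4 was not called, where 48.9% of all genes were called. In that fit the median of all tested genes was 0.19, against 0.01 in the main fit, and 2776 genes were higher and 2664 lower in SoLo. With the replicate block as well, 8 were lower and glr-4 was called as higher, where 62.5% of all genes were called.

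**Figure D5:**
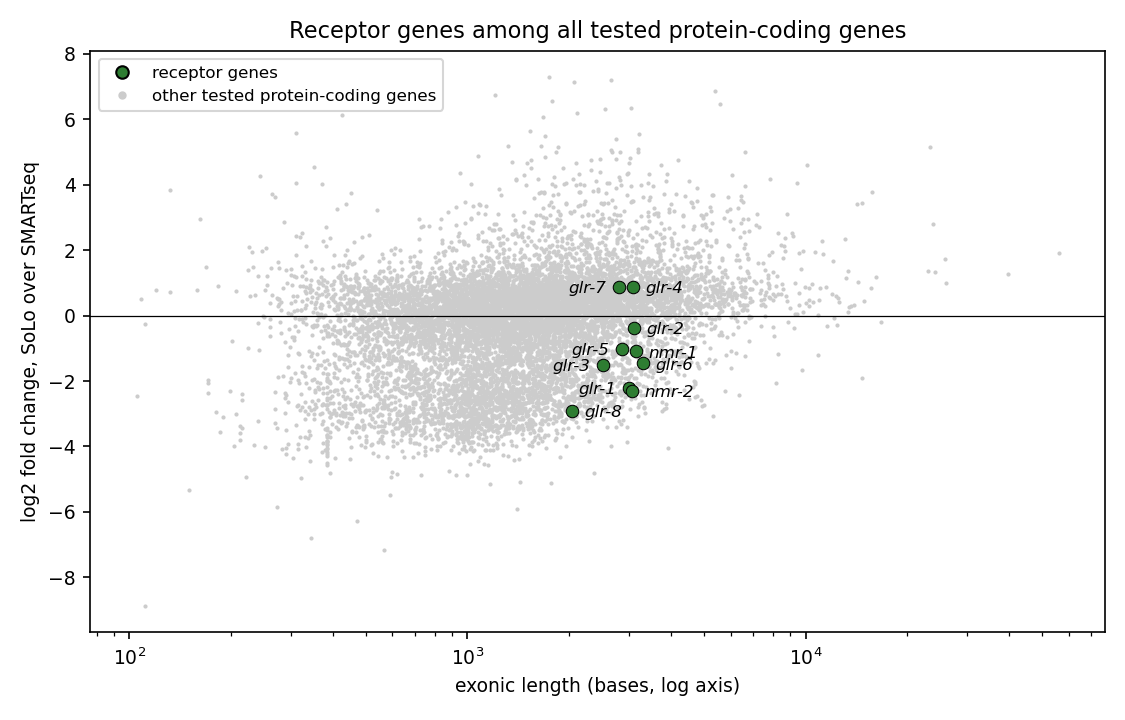
Log2 fold change of SoLo over SMARTseq against exonic length in bases (log axis) for 10636 tested protein-coding genes (grey) and the receptor genes (green). The receptor genes lie between 2033 and 3315 bases, 8 of them below 0, where the median of the tested protein-coding genes is -0.01.

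Auxiliary subunits bind the receptors and set their gating and transport. Of 5 such genes, 3 were lower in SoLo and 0 were higher, where 27.6% of all tested genes were lower. The TARP genes stg-1 and stg-2 had -2.49 ± 0.23 and -1.79 ± 0.21 in log2(SoLo/SMARTseq). Their levels were 18 ± 4.18 CPM in SoLo and 101 ± 20.4 CPM in SMARTseq for stg-1, and for stg-2 35 ± 9.93 CPM in SoLo and 121 ± 8.33 CPM in SMARTseq (SD, n = 4). The CUB-domain protein gene sol-1, whose product is required for GLR-1 currents, had -1.12 ± 0.13. The value of sol-2 was 0.02 ± 0.20, and that of the cornichon gene cni-1 was -0.51 ± 0.25, which missed the threshold (edgeR adjusted p = 0.118) and passed with the replicate block (edgeR adjusted p = 0.0363) and without SMARTseq library 1 (-0.70, edgeR adjusted p = 0.0152). With library totals sol-2 was called at 0.56 (edgeR adjusted p = 0.0316), and cni-1 turned to 0.03.

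Transport and turnover of the receptors set how many reach the synapse. Of 21 such genes tested, 9 were higher in SoLo, 3 were lower and 9 were not called, with a median of 0.52. Of all tested genes 47.6% were called, 20% being higher and 27.6% lower in SoLo. This list thus held more genes higher than lower, and all tested genes held fewer. No test was made of the list as a set. The clathrin adaptor gene unc-11 had 2.34 ± 0.21, the kinesin gene klp-4, whose product carries GLR-1, had 1.20 ± 0.17, and the retromer gene vps-35 had 1.10 ± 0.21. Lower in SoLo were the scaffold gene magi-1 at -1.25 ± 0.14, the kinase gene cmk-1 at -1.17 ± 0.23 and the deubiquitinase gene usp-46 at -0.72 ± 0.22. The call of usp-46 was lost without SoLo library 1, 3 or 4 (edgeR adjusted p = 0.0643, 0.0672 and 0.0657) and with library totals. With the replicate block 13 were higher and 4 lower, where 61.1% of all genes were called.

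Among 16 genes of glutamate release, uptake and other glutamate receptors, 11 were tested, of which 5 were higher and 2 lower in SoLo, where 20% of all tested genes were higher and 27.6% lower. The transporter gene glt-4 reached 115 ± 20.1 CPM in SoLo, against 3.26 ± 1.76 CPM in SMARTseq, and differed by 5.10 ± 0.37 on the log2 scale. Of the 3 metabotropic receptor genes, mgl-2 at 1.84 ± 0.19 and mgl-3 at 0.75 ± 0.19 were higher in SoLo, and mgl-1 at -1.11 ± 0.23 was lower. Of the 5 tested genes of glutamate-gated chloride channels, avr-14 was higher at 0.72 ± 0.13, avr-15 was lower at -2.0 ± 0.30, and glc-2, glc-3 and glc-4 were not called. With library totals mgl-1 was not called (-0.57, edgeR adjusted p = 0.0628).

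All 4 listed transcription factor genes of command interneuron identity were called, 3 lower and 1 higher in SoLo. Of all tested genes 27.6% were lower and 20% higher. For unc-42, whose product is required for glr-1 expression, the mean was 89 ± 24.3 CPM in SoLo, against 579.7 ± 168 CPM in SMARTseq, or -2.70 ± 0.26 on the log2 scale. The values of unc-3 and fax-1 were -2.84 ± 0.13 and -2.81 ± 0.27. cfi-1 was higher in SoLo, with 47 ± 7.3 CPM in SoLo against 4.14 ± 1.84 CPM in SMARTseq, a log2 difference of 3.49 ± 0.33.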

How the data were processed

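RNA sequencing libraries of sorted C. elegans neurons were analysed from raw read counts per gene that the authors deposited, 1 column per library. Per the submitters' processing notes, STAR, SAMtools and featureCounts and the build WBcel235 were used, and no version, strand setting or rule for reads with several alignments is given in the sources used here. Kits were compared in edgeR 4.0.16 (R 4.3.3) by its quasi-likelihood F test (TMM, filterByExpr by kit, kit as the only term, Benjamini-Hochberg adjustment over all tested genes, 0.05). CPM here are counts over TMM-scaled sizes of the filtered libraries. Standard errors were approximated by dividing the size of each log2 fold change by the root of its F. Exonic length is the union of exons in Ensembl release 115, and 43955 of 46748 names were matched to it. The fit was tested on simulated counts.

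Same-numbered libraries come from 1 divided RNA sample, and their deviations from the kit means correlated across 11378 genes at 0.741, 0.342, 0.333 and 0.298, which are the pairs of the replicate block. Libraries of different numbers reached 0.317 (SoLo 4 with SMARTseq 3) and 0.312 (SoLo 3 with SMARTseq 4), so the pairing rests on the divided RNA and not on these values. Between libraries of a kit, the chi-square per degree of freedom was 2.29 to 3.43 in SoLo and 9.43 to 11.6 in SMARTseq among RNA samples 2 to 4, and 29.8 to 32.5 and 87 to 98.1 against RNA sample 1, so none were merged in the fit. Alternatives were DESeq2 1.42.0, other scalings and filters, protein-coding genes alone, the block, 1 library left out, RNA samples 2 to 4 summed, and a length trend (loess). The fits with RNA samples 2 to 4 alone were chosen after seeing the data.

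The receptor genes and the lists were chosen with earlier results of these data known. All receptor genes are named, and of the partner lists the auxiliary subunits and, for the trafficking and glutamate handling lists, in each direction up to 3 called genes with the smallest adjusted p. The 4 regulators, mgl-3, glc-2, glc-3, glc-4 and single marker genes lie outside this rule and were named after their values were seen. The values of the other list members stand as counts. 0 columns belonged to no sample.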

Additional observations from a re-analysis of the deposited data

Results flagged for a closer look

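Of the 20 groups formed by the 10 receptor genes in each kit, 3 had a library far from the other 3. Far means a gap to the nearest library over 0.829 of the whole range. Independent normal values would give this in about 1 in 20 groups. The share over all tested genes is not given here, so no excess among the receptor genes can be read from it. All 3 were libraries of RNA sample 1. That sample lay outside the others on the same side in both kits for 48.7% of all tested genes. glr-4 had 135 CPM in SoLo library 1, above 89.2 to 94 CPM in the other SoLo libraries, with a ratio of gap to range of 0.894. nmr-2 had 39.6 CPM in SoLo library 1, below 55.2 to 56.7 CPM (ratio 0.912). glr-7 had 5.82 CPM in SMARTseq library 1, above 0.707 to 1.42 CPM (ratio 0.861). The cause was not tested.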

How the results depend on the processing

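Of 207 values of single receptor genes under alternatives, 189 kept their direction and their side of the threshold, 10 lost the call, 7 gained one and 1 reversed. The reversed one was glr-2 with library totals (0.16). nmr-2 and glr-8 were called in all 21 alternatives. The count of receptor genes higher in SoLo, 1 in the main test, ranged from 0 to 2 when 1 library was left out. It was 2 without SMARTseq library 1 (glr-4 and glr-7), where glr-7 passed the filter through SoLo libraries alone. The count higher in SoLo was 0 without SMARTseq library 2 or 4. It was also 0 with the length trend taken out, and 0 with RNA samples 2 to 4 summed and unpaired, where the count lower in SoLo was 2 in place of 7. With the replicate block both of these gave 1 higher (glr-4). The unpaired summed fit called 1341 of 14456 genes (9.28%), its blocked form 7068 of 14456 (48.9%), and the main test 5415 of 11378 (47.6%). In the unpaired one glr-1, glr-3, glr-4, glr-5, glr-6 and nmr-1 kept their sign at adjusted p between 0.0793 and 0.188, with 2 columns per kit. With the replicate block alone the count lower in SoLo was 8, glr-2 being added (-0.38), and no other receptor call changed. On the summed samples with the block the count was 7, glr-2 not being called (-0.22). The order by level was the same with the longest transcript as length. The fewest reads were those of glr-7, 55 in SoLo and 48 in SMARTseq, and of glr-8, 49 in SoLo and 544 in SMARTseq.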

Other observations

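Across the 8 libraries, the tested genes whose log2(CPM + 1) followed that of glr-5, the receptor gene with the highest mean CPM, most closely were T04G9.4, cpn-1 and lgc-36, with Pearson r of 0.982, 0.975 and 0.973. These values share libraries and kits and are a description only.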
